A study of Homo sapiens with 4 samples.

Results

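GP6, CD22, LAPTM5 and ARHGDIB are genes best known from blood cells, and their transcripts differed in abundance between osteosarcoma cells given BRPF3 siRNA and cells given control siRNA. They were taken as every probe set of the array that the platform annotation names for these 4 symbols, which gave 1 probe set per gene, so 4 of 14884 named genes. They were selected on their log2 differences between the siRNAs, so those differences are described and not tested. The arrays were of U2OS, an established human osteosarcoma line. Both groups were transfected with siRNA at 50 nM by lipid reagent and lysed at 48 hours. The control siRNA group (a scrambled negative control sequence) and the BRPF3 siRNA group each held 2 arrays, labelled biological replicates. BRPF3 is a scaffold protein of histone acetyltransferase complexes. Its own transcript was not analysed here, so its depletion was not checked. No other siRNA was analysed here, so depletion and side effects of the siRNA cannot be told apart. Nothing in the labels tells whether the 2 cultures of a group were independent. The p-values thus reflect only how these arrays vary, which may be technical, and the number of arrays limits the precision. All levels below are log2 values made by RMA, which summarises the probes of a probe set after background correction and normalization between arrays. RMA levels of different probe sets are not comparable with each other, so each gene is compared only with itself.

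The 4 genes act at the surface, in the lysosome and in the cytosol of blood cells. GP6 encodes glycoprotein VI, the collagen receptor of platelets, which signals through the Fc receptor gamma chain, SRC-family kinases, SYK and phospholipase C gamma. CD22 is a sialic acid-binding lectin of B cells (a Siglec) that recruits the phosphatase SHP-1, the product of PTPN6, and damps the B cell receptor. LAPTM5 is a membrane protein of lysosomes in blood cells that is sorted with the help of NEDD4-type ubiquitin ligases and promotes the turnover of antigen receptors. ARHGDIB encodes a cytosolic regulatory protein that is most abundant in blood cells, while its relative ARHGDIA is found in most cells.

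The bases just upstream of the annotated starts of the 4 genes are shown because each pair that moved together can then be compared by sequence. They are RefSeq sequence of GRCh38.p14, 250 bases long and read 5′ to 3′ on the strand of the gene. GP6 lies on chromosome 19 (chr19:55038265-55038514, minus strand), as does CD22 (chr19:35328937-35329186, plus strand). LAPTM5 lies on chromosome 1 (chr1:30757775-30758024, minus strand). ARHGDIB lies on chromosome 12 and has 3 annotated starts in the table, of which the most downstream is shown (chr12:14948897-14949146, minus strand). Capitals mark matches, on either strand, to 7 motifs searched: AGATAA for GATA factors, TGTGGT for RUNX factors, GAGGAA for PU.1, GGAAGT for ETS factors, GGGCGG for SP factors, the E box CACGTG and the TATA box TATAAA. The PU.1 and ETS motifs can overlap, since both hold GGAA.
GP6: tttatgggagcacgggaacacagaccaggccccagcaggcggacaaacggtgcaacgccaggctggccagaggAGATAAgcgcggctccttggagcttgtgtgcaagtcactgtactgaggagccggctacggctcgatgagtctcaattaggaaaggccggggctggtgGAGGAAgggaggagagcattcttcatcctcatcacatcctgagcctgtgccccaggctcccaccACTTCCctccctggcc
CD22: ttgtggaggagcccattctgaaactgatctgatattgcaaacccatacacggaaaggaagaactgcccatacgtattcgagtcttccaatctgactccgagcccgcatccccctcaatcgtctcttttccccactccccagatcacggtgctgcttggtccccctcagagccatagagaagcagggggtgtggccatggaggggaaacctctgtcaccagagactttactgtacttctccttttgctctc
LAPTM5: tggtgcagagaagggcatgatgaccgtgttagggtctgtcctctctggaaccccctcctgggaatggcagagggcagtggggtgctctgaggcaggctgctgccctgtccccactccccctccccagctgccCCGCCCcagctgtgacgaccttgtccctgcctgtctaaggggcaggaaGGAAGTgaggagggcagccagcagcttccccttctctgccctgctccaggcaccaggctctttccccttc
ARHGDIB: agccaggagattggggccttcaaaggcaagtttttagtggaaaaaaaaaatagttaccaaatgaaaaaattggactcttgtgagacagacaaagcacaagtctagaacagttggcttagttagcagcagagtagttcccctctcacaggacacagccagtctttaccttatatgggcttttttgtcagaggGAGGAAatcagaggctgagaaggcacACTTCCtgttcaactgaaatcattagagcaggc
GP6 held the GATA, PU.1 and ETS motifs, beginning 177, 80 and 16 bases before the start. Among 35116 upstream windows of the same length 9.17% held the GATA motif, 23.6% the PU.1 motif and 19.5% the ETS motif on either strand. CD22, which moved in the same direction as GP6, held 0 of the 7 motifs, although 42.6% of all windows held the SP motif. LAPTM5 held the ETS and SP motifs, and the window shown for ARHGDIB held the PU.1 and ETS motifs. The other ARHGDIB windows held none of the 7. The ETS motif was thus found upstream of GP6, LAPTM5 and ARHGDIB, which did not move the same way. The remaining motifs were held by 11.0% (RUNX), 6.35% (E box) and 10.7% (TATA box) of all windows. The number of CpG dinucleotides was 10 for GP6, 7 for CD22, 3 for LAPTM5, and 0, 3 and 2 for the 3 windows of ARHGDIB, against a median of 11 over all windows. These are letter matches only.

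GP6 and CD22 were higher after BRPF3 siRNA. The level of GP6 was 6.08 and 6.55 on the control arrays against 7.68 and 8.06 after BRPF3 siRNA. Both BRPF3 siRNA arrays lay above both control arrays, with a gap of 1.13 between the nearest. The group means were 6.32 ± 0.33 and 7.87 ± 0.27 (SD, n = 2 each), a difference of 1.55 on the log2 scale, or 2.93-fold. Of all 10696 genes tested, only 2 had a larger rise. CD22 stood at 7.33 and 6.98 with control siRNA and at 8.53 and 8.20 with BRPF3 siRNA, again without overlap and with a gap of 0.87. Its means of 7.15 ± 0.25 and 8.37 ± 0.23 (SD, n = 2) differed by 1.21, or 2.32-fold, and 11 tested genes had a larger rise. Within each group the array of replicate 2 was the higher for GP6, whereas the array of replicate 1 was the higher for CD22.

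The other pair was lower after BRPF3 siRNA. LAPTM5 was at 6.38 and 6.07 with control siRNA and at 5.25 and 5.44 with BRPF3 siRNA, so that the groups were 0.63 apart at their nearest. Its means of 6.23 ± 0.22 and 5.34 ± 0.14 (SD, n = 2) differed by -0.88, a level 1.84-fold lower. Of the tested genes, 69 had a deeper fall. ARHGDIB was at 5.76 and 5.58 with control siRNA and at 4.48 and 4.09 with BRPF3 siRNA, a gap of 1.11. Its means were 5.67 ± 0.13 and 4.28 ± 0.28 (SD, n = 2), a difference of -1.39 or 2.63-fold lower, and 3 tested genes had a deeper fall. Both BRPF3 siRNA values of ARHGDIB lay under the intensity bound of 4.59, the median level of all probe sets, which the mean of a gene over the 4 arrays had to reach to be tested. RMA compresses differences near the background, so the size of this fall is uncertain. GP6, CD22 and LAPTM5 were above that bound on every array.

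**Figure D1:**
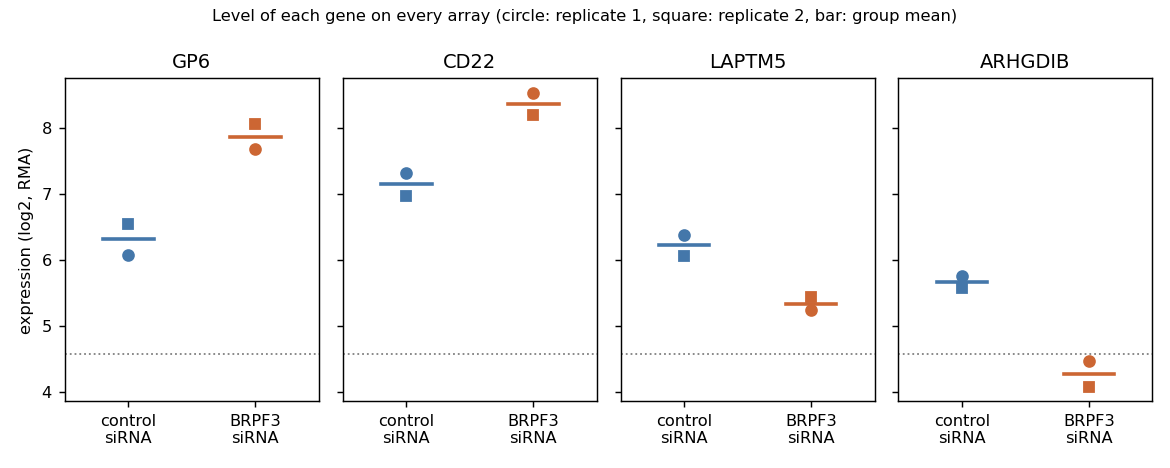
Level of GP6, CD22, LAPTM5 and ARHGDIB on each array (vertical axis, log2 RMA values), with circles for replicate 1, squares for replicate 2, bars for group means and a dotted line at the intensity bound of 4.59. The groups do not overlap for any of the 4 genes, nor for 63.2% of all tested genes. Both BRPF3 siRNA values of ARHGDIB lie under the line.

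The 4 genes varied more between arrays of a group than most genes did. The SD between the control arrays was 0.33 for GP6, larger than that of 98.5% of the tested genes, 0.25 for CD22 (95.5%) and 0.22 for LAPTM5 (93.5%), while it was 0.13 for ARHGDIB (77.8%). Between the BRPF3 siRNA arrays it was 0.27 for GP6 (93.9%), 0.23 for CD22 (90.9%), 0.14 for LAPTM5 (73.7%) and 0.28 for ARHGDIB (94.5%). The median over all tested genes was 0.063 in the control group and 0.076 in the BRPF3 siRNA group. A lack of overlap is common on these arrays, since 63.2% of all tested genes had groups that did not overlap, 27.3% with the BRPF3 siRNA arrays higher and 35.9% with them lower.

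Over all 10696 tested genes, limma with Benjamini-Hochberg adjustment called 1686 genes changed at an adjusted p under 0.05, which is 15.8%. Of the tested genes 6.32% rose (676) and 9.44% fell (1010), and the median difference was -0.03. At an unadjusted p under 0.05 there were 3706 genes, or 34.6%. Falls made up 59.9% of the calls on the deposited values, but 48.4% after quantile and 49.0% after cyclic loess normalization. The 4 genes are among these calls, which is how they came to be chosen, and nothing is read from that. Without control replicate 1 or control replicate 2 the number of calls was 0, with 2432 and 2465 genes at an unadjusted p under 0.05. Without BRPF3 siRNA replicate 1 or 2 it was 717 and 755. No call below is therefore made without both control arrays. A fit with an array left out also has fewer degrees of freedom and less power. Where a call is lost in such a fit, loss of power and dependence on that array cannot be told apart. When all 14884 named genes were tested without an intensity bound, 409 were called, and of the called companions and neighbours described below only CD37 remained (adjusted p = 0.0497). The companions of the 4 genes were examined in 11 lists of 195 genes, of which 114 were named on the array and 71 passed the intensity bound. Of the 71, 3 rose (4.23%) and 6 fell (8.45%), shares that are below and near those of all tested genes, and their median difference was -0.04, against -0.03 over all tested genes. Of these 71, 22 had an unadjusted p under 0.05 (31.0%). The medians of small lists moved with the setting. Those of 6 of the 11 lists changed sign under at least 1 setting. The other 5 ran from -0.16 to -0.06 (collagen signalling), -0.21 to -0.09 (LAPTM family), -0.67 to -0.19 (leukocyte), -0.20 to -0.07 (T and NK cell) and 0.06 to 0.23 (osteoblast).

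**Figure D2:**
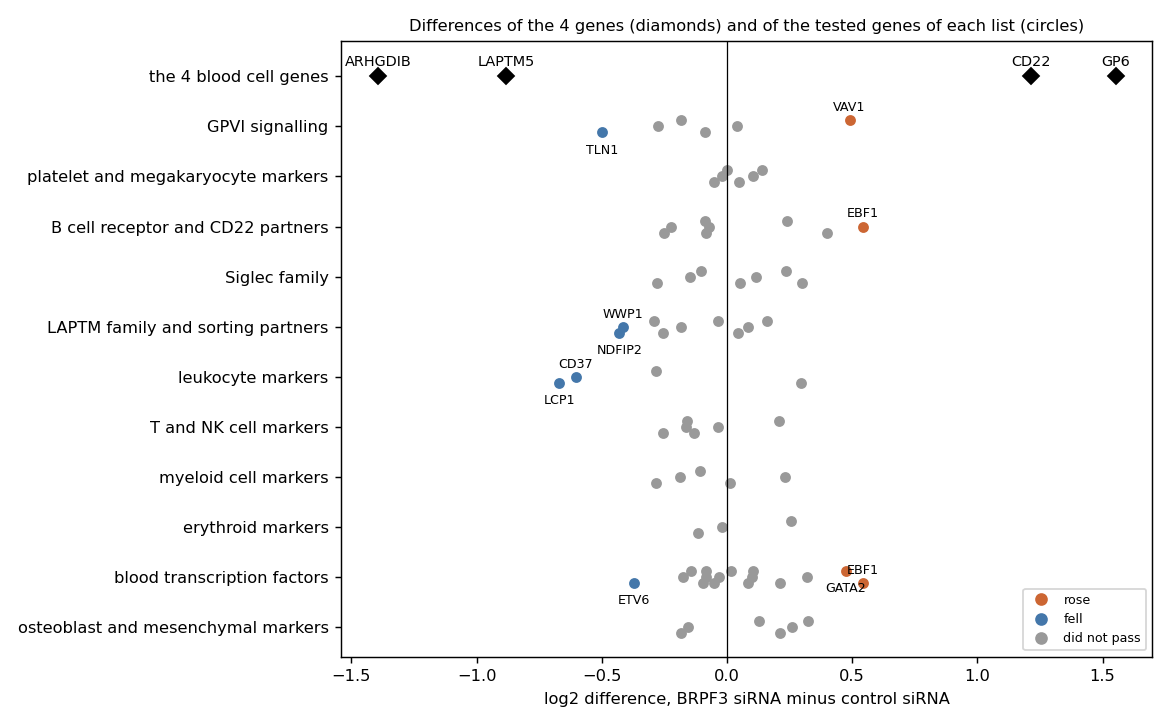
Log2 difference between BRPF3 siRNA and control siRNA (horizontal axis) for the 4 genes (diamonds) and for the tested genes of 11 companion lists (circles, 1 row per list), coloured by whether the gene rose, fell or did not pass limma's test. The list genes lie between -0.67 and 0.54.

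Among the partners of GP6 in collagen signalling, 1 of 6 tested genes rose, 1 fell and 4 did not pass, with a median difference of -0.14 (-0.07 after quantile and -0.08 after cyclic loess normalization). Over all tested genes the shares were 6.32% risen and 9.44% fallen. An unadjusted p under 0.05 was reached by 2 of the 6 (33.3%), against 34.6% of all tested genes. VAV1, a guanine nucleotide exchange factor of blood cells that acts below GP6, rose 1.40-fold (0.49 ± 0.08, adjusted p = 0.0190; errors of differences are moderated standard errors of limma with n = 2). It was at 6.38 and 6.40 with control siRNA and at 6.91 and 6.85 with BRPF3 siRNA. Its groups did not overlap, which was so for 63.2% of all tested genes. TLN1 encodes talin, the cytoskeletal protein that activates integrins at the end of this route, and it fell by 0.50 ± 0.08 (limma, adjusted p = 0.0182). The SRC-family kinase LYN (-0.09 ± 0.08, limma adjusted p = 0.470) and the adaptor LAT (-0.18 ± 0.12, limma adjusted p = 0.339) did not pass. The kinases SYK and BTK and the adaptor LCP2 were under the intensity bound, and the receptor's own signalling chain FCER1G was not analysed here. Without either control array both calls were lost, with adjusted p from 0.104 to 0.119, and without BRPF3 siRNA replicate 1 they were also lost (0.0521 for TLN1 and 0.0567 for VAV1).

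Markers of platelets and megakaryocytes, the cells in which GP6 is normally made, showed no call. Of the 6 tested, limma called 0, and 0 had an unadjusted p under 0.05 (34.6% of all tested genes), with differences from -0.05 to 0.14 and a median of 0.02, and limma with an intensity trend also called 0. PF4, the platelet chemokine, differed by 0.14 ± 0.10 (limma adjusted p = 0.354), and GFI1B, a transcription factor of megakaryocytes and red cells, by -0.05 ± 0.10 (limma adjusted p = 0.742). The platelet membrane protein GP5, the granule protein PPBP and VWF were under the bound.

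For CD22, 1 of 8 tested genes of the B cell receptor and its partners rose, 0 fell and 7 did not pass, with a median difference of -0.08. Over all tested genes 6.32% had risen and 9.44% fallen. Of the 8, 5 had an unadjusted p under 0.05 (62.5%, against 34.6% of all tested genes). The gene that rose was EBF1, a transcription factor that sets up the B cell programme. It was at 5.47 and 5.40 with control siRNA and at 5.83 and 6.13 with BRPF3 siRNA (0.54 ± 0.12, limma adjusted p = 0.0363). Its call was lost without control replicate 1 (adjusted p = 0.145), control replicate 2 (0.165) or BRPF3 siRNA replicate 2 (0.0739). PAX5, its partner in B cells, differed by -0.08 ± 0.15 (limma adjusted p = 0.736). CR2, the complement receptor of B cells (0.40 ± 0.12, limma adjusted p = 0.0738), CD81 (0.24 ± 0.08, limma adjusted p = 0.0915) and the adaptor SHC1 (-0.25 ± 0.08, limma adjusted p = 0.0835) did not pass. With an intensity trend in limma 1 gene of the list rose and 2 fell, SHC1 among them (adjusted p = 0.00699), while 9.69% and 15.0% of all tested genes did so. The difference of SHC1 shrank to -0.16 after quantile normalization (limma adjusted p = 0.216) and did not pass after cyclic loess either. The receptor adaptor BLNK, the lectin CD72 and the kinase BLK were under the bound.

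Other Siglecs, the lectin family of CD22, showed no call either. Of 7 tested, limma called 0, also with an intensity trend, 1 had an unadjusted p under 0.05 (34.6% of all tested genes), and the median difference was 0.05. SIGLEC10 had the highest moderated t (0.23 ± 0.09, limma adjusted p = 0.143) and SIGLEC14 the lowest (-0.15 ± 0.09, limma adjusted p = 0.300). MAG, the Siglec of myelin and the measured gene next to CD22 on the chromosome, differed by -0.28 ± 0.17 (limma adjusted p = 0.307). Its BRPF3 siRNA arrays were at 4.24 and 4.77 against 4.82 and 4.75 for control, so the groups overlapped. Without BRPF3 siRNA replicate 2 it passed, with a difference of -0.54 (limma adjusted p = 0.0470).

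Among relatives and sorting partners of LAPTM5, all 9 named genes were tested, 0 rose, 2 fell and 7 did not pass, with a median difference of -0.18 (-0.09 after quantile and -0.10 after cyclic loess normalization). The falls made up 22.2% of the list, against 9.44% of all tested genes. Of the 9, 4 had an unadjusted p under 0.05 (44.4%, against 34.6%). NDFIP2, a membrane adaptor that recruits NEDD4-type ligases, fell by 0.43 ± 0.08 (limma adjusted p = 0.0262), from 8.13 on each control array to 7.74 and 7.66. WWP1, a ligase of that family, fell by 0.42 ± 0.08 (limma adjusted p = 0.0276), from 8.84 and 8.83 to 8.37 and 8.46. Leaving out any 1 of the 4 arrays ended both calls, with adjusted p from 0.0543 to 0.147. The relatives LAPTM4A (-0.29 ± 0.09, limma adjusted p = 0.0752) and LAPTM4B (-0.18 ± 0.08, limma adjusted p = 0.160) did not pass, but both passed with an intensity trend in limma (adjusted p = 0.00388 and 0.0355). After quantile normalization they shrank to -0.18 (limma adjusted p = 0.199) and -0.09 (0.440). With the intensity trend 4 of the 9 list genes fell, where 15.0% of all tested genes did. The ligase ITCH differed by -0.03 ± 0.08 (limma adjusted p = 0.783) and SMURF1, another NEDD4-type ligase, by 0.16 ± 0.08 (limma adjusted p = 0.226).

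ARHGDIA, the widely made relative of ARHGDIB, was at 10.91 and 10.97 with control siRNA and at 10.89 and 10.81 with BRPF3 siRNA. Its difference of -0.09 ± 0.08 did not pass (limma adjusted p = 0.464), and its sign turned after quantile normalization (0.0031) and cyclic loess normalization (0.0017).

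Of the leukocyte markers, genes made across white blood cells as LAPTM5 and ARHGDIB are, 12 of 20 were named, 4 were tested, 0 rose and 2 fell. Over all tested genes 9.44% fell. All 4, of which 1 differed upward, had an unadjusted p under 0.05, against 34.6% of all tested genes. CD37, a tetraspanin of B cells and other leukocytes, fell by 0.60 ± 0.09 (limma adjusted p = 0.0161), from 5.27 and 5.11 to 4.59 and 4.58. Its BRPF3 siRNA mean lay just under the intensity bound, so it passed the bound through the control group, where it was high. LCP1, the actin-bundling protein L-plastin, which is also made by many tumour lines, fell by 0.67 ± 0.13 (limma adjusted p = 0.0265), from 8.19 and 8.10 to 7.64 and 7.31. The groups did not overlap for either gene, which was so for 63.2% of all tested genes. Without either control array both calls were lost (adjusted p from 0.0846 to 0.139), and LCP1 also missed without BRPF3 siRNA replicate 2 (0.0525). CD52 (-0.28 ± 0.11, limma adjusted p = 0.141) and ARHGAP45 (0.29 ± 0.08, limma adjusted p = 0.0641) did not pass. The BRPF3 siRNA mean of CD52, 4.56, lay under the bound as well, so CD52 too passed it through the control group. The median difference was -0.44 over the 4 tested genes and -0.19 over all 12 named, of which 10 lay below 0, against 52.4% of all named genes. It was -0.45 and -0.46 over the tested genes after quantile and cyclic loess normalization. The median over the tested genes rests on CD37 and CD52, which both passed the bound through the control group. Nothing is therefore read from it.

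The 8 leukocyte markers under the bound included CD53, a tetraspanin of all white blood cells, which was at 3.61 in the control group and 2.77 in the BRPF3 siRNA group. When genes were tested without an intensity bound CD53 was called (-0.84, limma adjusted p = 0.0384). CD48, HCLS1, WAS, SELPLG and SPN were under it too, and the pan-leukocyte phosphatase PTPRC was not analysed here. The median level of the 12 named markers was 4.14 and 4.41 with control siRNA against 4.29 and 4.21 with BRPF3 siRNA, ranges that meet. These medians mix probe sets whose levels are not comparable, so nothing is read from them. The differences within genes lay below 0 for 10 of the 12, but 8 of the 12 were under the bound. Some were near 0, such as SELPLG (-0.02) and RHOH (-0.04). Differences also lay below 0 for 7 of 9 named T and NK cell markers and for 4 of 10 myeloid markers. Nothing is therefore read from this count. In RNA from whole cultures, fewer cells that make a transcript and less of it per cell cannot be told apart. The part of leukocyte markers in the falls of LAPTM5 and ARHGDIB was not tested.

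Markers of other blood lineages showed no call. Limma called 0 of 6 T and NK cell markers (1 at an unadjusted p under 0.05), 0 of 5 myeloid markers (1) and 0 of 3 erythroid markers (0), where 34.6% of all tested genes had such a p, and with an intensity trend it also called 0 in each. Their median differences were -0.15, -0.11 and -0.02. Among the T and NK cell genes CD8A (0.21 ± 0.08, limma adjusted p = 0.130) and the kinase LCK (-0.16 ± 0.09, limma adjusted p = 0.268) had the highest and lowest moderated t. Among the myeloid genes these were the signalling adaptor TYROBP (0.23 ± 0.18, limma adjusted p = 0.413) and the granule enzyme MPO (-0.28 ± 0.09, limma adjusted p = 0.0781), and among the erythroid genes the erythropoietin receptor EPOR (0.26 ± 0.16, limma adjusted p = 0.309) and the regulator KLF1 (-0.12 ± 0.14, limma adjusted p = 0.599). Of all 114 named list genes 62.3% were tested, against 71.9% of all named genes. The osteoblast and mesenchymal list, meant as a check of the cell line's label, had 8 named and 6 tested genes. RUNX2, the master regulator of osteoblasts, was at 6.47 and 6.31 in the control and BRPF3 siRNA groups (-0.16 ± 0.09, limma adjusted p = 0.275). SP7 was at 4.75 and 4.57 in these groups, and IBSP and TWIST1 were under the bound. Levels of different probe sets are not comparable, so the label is not checked by them. SPP1, the bone matrix protein osteopontin, differed by 0.26 ± 0.09 (limma adjusted p = 0.0946). Of this list limma called 0, also with an intensity trend, with 2 at an unadjusted p under 0.05. With the bound at the 75th percentile SPP1 rose (limma adjusted p = 0.0377). The homeobox gene MSX2 did not pass (0.32 ± 0.23, limma adjusted p = 0.363). Without BRPF3 siRNA replicate 1 its difference was 0.68, so the 2 BRPF3 siRNA arrays disagreed and its difference rests on replicate 2.

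Of 16 tested transcription factors of blood lineages 2 rose, 1 fell and 13 did not pass, with a median difference of -0.01. These shares were 12.5% and 6.25%, against 6.32% and 9.44% of all tested genes. Of the 16, 3 had an unadjusted p under 0.05 (18.8%, against 34.6%). GATA2, which acts in blood stem cells and megakaryocytes, rose 1.39-fold (0.47 ± 0.09, limma adjusted p = 0.0271), from 4.84 and 5.01 to 5.39 and 5.41. EBF1 was the other gene that rose. ETV6, an ETS-family repressor, fell by 0.37 ± 0.08 (limma adjusted p = 0.0353), but not after quantile (adjusted p = 0.0707) or cyclic loess normalization (0.0630). GATA2 and ETV6 kept their calls in none of the 4 fits that leave out an array. GATA1, the main GATA factor of platelets and red cells, differed by 0.10 ± 0.08 (limma adjusted p = 0.383), SPI1, which encodes PU.1, by 0.08 ± 0.08 (limma adjusted p = 0.508), and RUNX1 by 0.21 ± 0.10 (limma adjusted p = 0.206). FLI1 and IKZF1 were under the bound.

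The genes next to the 4 on their chromosomes were compared to see whether neighbours moved with them. For each gene the 5 nearest named genes on either side were taken, 40 in all, of which 27 were tested, 5 rose (18.5%) and 2 fell (7.41%), with a median difference of 0.02. Of all tested genes 6.32% rose and 9.44% fell. The 5 include the microRNA gene MIR4420, which reached the bound only through the BRPF3 siRNA group, and NCR1, whose call many settings ended. Nothing is therefore read from the share that rose. Of the 27, 9 had an unadjusted p under 0.05, against 34.6% of all tested genes. Next to GP6, NCR1, an activating receptor of natural killer cells, rose by 0.51 ± 0.12 (limma adjusted p = 0.0470), from 5.14 and 5.45 to 5.87 and 5.74. Its call was lost after quantile normalization (adjusted p = 0.0552), with the replicate block (0.0609) and without any 1 of the 4 arrays (0.0851 to 0.190). On the other side of GP6, RDH13, a mitochondrial retinol dehydrogenase, differed by -0.06 ± 0.11 (limma adjusted p = 0.714). Of the 8 tested neighbours of CD22 limma called 0, and 1 had an unadjusted p under 0.05, against 34.6% of all tested genes. Its nearest, FFAR1, a fatty acid receptor, differed by -0.04 ± 0.08 (limma adjusted p = 0.752). The antisense gene GP6-AS1 overlaps GP6 and the microRNA gene MIR5196 lies within CD22 in the RefSeq table. Neither has a probe set named here, and the strand handling of the array is not given in the sources used here, so signal from overlapping transcripts cannot be told apart in these probe sets.

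At LAPTM5, 2 of 9 tested neighbours rose and 1 fell. Over all tested genes 6.32% had risen and 9.44% fallen. Of the 9, 4 had an unadjusted p under 0.05, against 34.6% of all tested genes. MIR4420, a microRNA gene on the same strand within LAPTM5 in the RefSeq table, was at 4.38 and 4.33 with control siRNA and at 5.03 and 4.87 with BRPF3 siRNA. Its probe set rose by 0.59 ± 0.09 (limma adjusted p = 0.0180), while LAPTM5 around it stood 0.88 lower. Both control values lay under the bound of 4.59, so the probe set was tested only because it was high in the BRPF3 siRNA group, and its call supports nothing by itself. Without the bound its adjusted p was 0.0533 (limma). The mature microRNA (chr1:30739158-30739179, minus strand, GRCh38.p14, RefSeq) is shown with its seed, bases 2 to 8, in capitals.
hsa-miR-4420: gUCACUGAugucuguagcugag
Probes for so short a gene can pair with the precursor or with RNA of the host gene, and which of them was measured was not tested. SDC3, the heparan sulphate proteoglycan syndecan-3, rose by 0.52 ± 0.09 (limma adjusted p = 0.0212), from 5.89 and 5.81 to 6.43 and 6.31. SRSF4, a splicing factor, fell by 0.38 ± 0.08 (limma adjusted p = 0.0294). Without either control array these 3 calls were lost (adjusted p from 0.102 to 0.151). Without BRPF3 siRNA replicate 1 SDC3 (0.0608) and SRSF4 (0.0742) lost theirs, and without BRPF3 siRNA replicate 2 SRSF4 did (0.0706) while SDC3 did not (0.0461). MIR4420 was too dim to be tested without either BRPF3 siRNA array. MATN1-AS1, the nearest measured gene on the other side, was under the bound with a difference of -0.03.

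Beside ARHGDIB, the 5 measured genes on 1 side were all under the bound, from C12orf60 to ERP27, an endoplasmic reticulum protein at 3.01 and 2.93 in the control and BRPF3 siRNA groups. On the other side 4 of 5 were tested, 2 rose and 1 fell. Of these 4, 3 had an unadjusted p under 0.05. Over all tested genes that share was 34.6%, with 6.32% risen and 9.44% fallen. EPS8, an actin regulator of growth factor signalling, rose 1.41-fold (0.50 ± 0.08, limma adjusted p = 0.0198), from 7.57 and 7.65 to 8.08 and 8.13. STRAP, an assembly factor that binds TGF-beta receptors, fell by 0.50 ± 0.08 (limma adjusted p = 0.0186), from 10.78 and 10.79 to 10.32 and 10.25. DERA, a deoxyribose-phosphate aldolase, rose 1.35-fold (0.43 ± 0.08, limma adjusted p = 0.0266). Without either control array all 3 calls were lost (adjusted p from 0.100 to 0.150). EPS8 and DERA also lost theirs without either BRPF3 siRNA array, and STRAP without BRPF3 siRNA replicate 2 (0.0541). The called genes around ARHGDIB thus went in both directions.

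**Figure D3:**
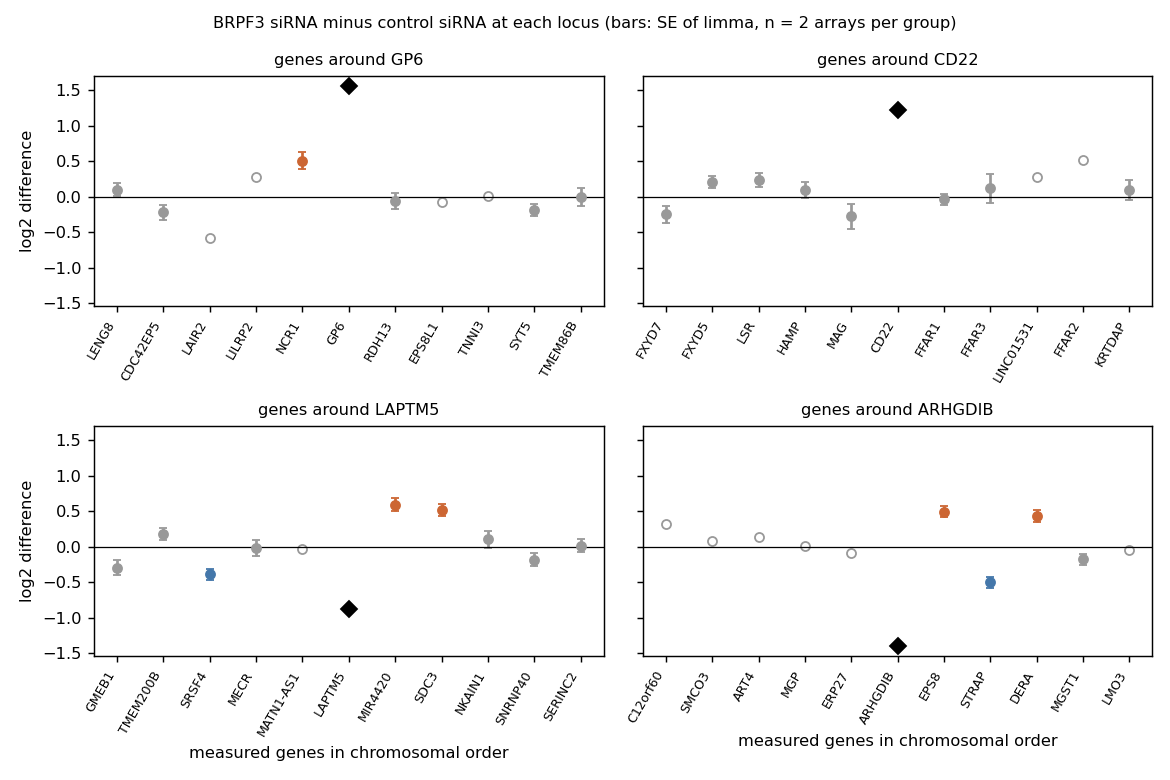
Log2 difference between BRPF3 siRNA and control siRNA (vertical axis) for each of the 4 genes (black diamond) and the 5 nearest named genes on either side in chromosomal order, with bars for limma's SE (n = 2 arrays per group). Orange points rose, blue points fell, grey points did not pass and open circles were under the intensity bound. Of the 27 tested neighbours 5 rose and 2 fell, while 6.32% of all tested genes rose and 9.44% fell. The 5 include MIR4420, which was under the bound on both control arrays.

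The tested genes most like each of the 4 across the 4 arrays were found as those with the smallest Euclidean distance between log2 profiles, each centred on its own mean. This likeness includes the difference between the groups that chose the 4 genes and is a description. Nearest to GP6 were the tight junction gene CLDN1 (distance 0.15), the metalloprotease ADAM12 (0.33) and PLXDC2 (0.38), against a median distance of 1.65 over 10695 genes. CLDN1 was at 6.43 and 6.75 with control siRNA and at 7.88 and 8.21 with BRPF3 siRNA, so that replicate 2 was the higher in each group, as for GP6. Nearest to CD22 were the pseudogene MSX2P1 (0.14), the transcriptional repressor ZHX2 (0.19) and the microRNA gene MIR4740 (0.24), with a median of 1.30. MSX2P1 was at 4.67 and 4.41, then at 5.90 and 5.44, with replicate 1 the higher in each group, as for CD22.

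LAPTM5 had as its nearest genes L3MBTL3, a chromatin reader (0.12), HK2, a hexokinase (0.13), and PIERCE2 (0.15), with a median distance of 0.90. HK2 was at 8.09 and 7.94 with control siRNA and at 6.98 and 7.28 with BRPF3 siRNA. ARHGDIB lay closest to MYOCD, a coactivator of smooth muscle genes (0.07), the ubiquitin ligase RNF43 (0.11) and the chemokine CCL24 (0.19), with a median of 1.41. MYOCD was at 8.01 and 7.82 with control siRNA and at 6.80 and 6.33 with BRPF3 siRNA. None of the 12 nearest genes belongs to the 11 companion lists, but only 71 of the 10696 tested genes do. The differences of those 71 ran from -0.67 to 0.54, short of those of the 4 genes. This outcome was thus nearly fixed beforehand, and nothing is read from it.

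**Figure D4:**
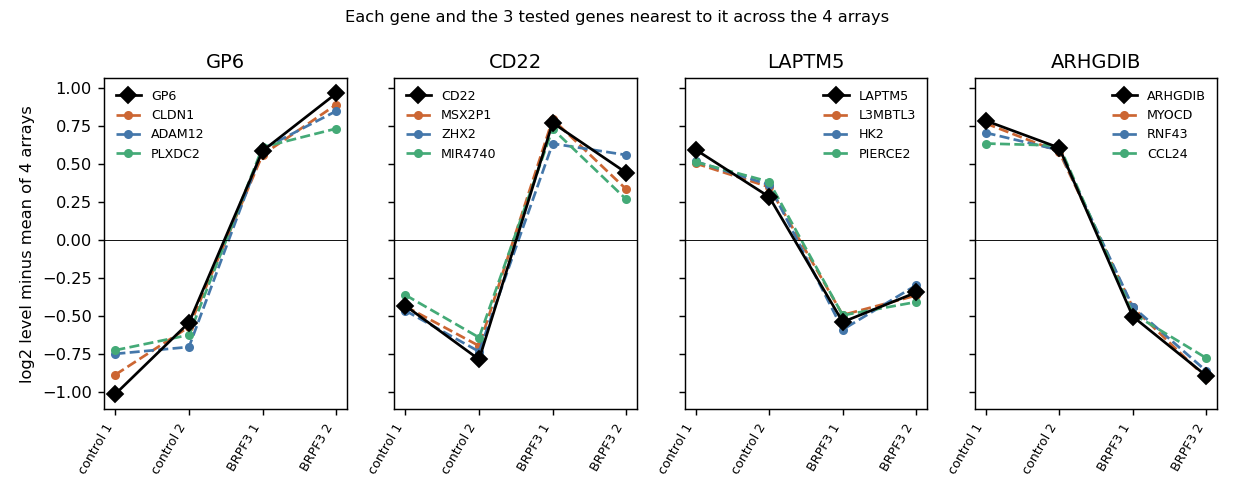
Log2 level minus the mean of the 4 arrays (vertical axis) on each array (horizontal axis) for GP6, CD22, LAPTM5 and ARHGDIB (black) and the 3 tested genes nearest to each (coloured); lines only join points of a gene. The nearest profile lies at a distance of 0.15 for GP6, 0.14 for CD22, 0.12 for LAPTM5 and 0.07 for ARHGDIB.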

How the data were processed

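Total RNA from U2OS cells was labelled and hybridised to Affymetrix whole-transcript arrays, per the labels' protocols. The deposited table holds log2 values of 53617 probe sets, made with RMA per the submitters' processing notes. For its version and settings the sources used here give nothing. The values lie between 0.80 and 13.57, with a median of 4.60 on every array, and were used as deposited. A shift shared by all transcripts cannot be seen after such normalization.

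A platform annotation gave 1 symbol to 16098 probe sets, several to 0, and none to the rest, which are unnamed here. All 16098 matched RefSeq (GRCh38.p14), used for names and gene order. For the 779 genes with several probe sets the brightest was kept, and genes were tested where their mean reached 4.59, the median over all probe sets. limma 3.58.1 in R 4.3.3 (lmFit, eBayes, two-sided) compared the groups over 10696 genes with 2 residual and 3.81 prior degrees of freedom, adjusted by Benjamini-Hochberg. The fit was first run on simulated arrays with seeded changes.

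The 4 genes and the lists were chosen with earlier results of these data known. One further list is not reported here. Named genes were the 4, ARHGDIA, LAPTM4A and LAPTM4B, called list genes, the highest and lowest moderated t of each list, called and nearest neighbours, and the 3 nearest profiles. Other list genes with values were named after their values were seen. Alternatives were quantile and cyclic loess normalization, no intensity filter or the 75th percentile, an intensity trend, the replicate block, the mean of all probe sets, and leaving out each array.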

Additional observations from a re-analysis of the deposited data

How the results depend on the processing

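The differences of the 4 genes kept their direction after quantile and cyclic loess normalization and with each array left out, and ran from 1.32 to 1.79 for GP6, from 1.04 to 1.39 for CD22, from -1.04 to -0.73 for LAPTM5 and from -1.59 to -1.20 for ARHGDIB. Leaving out an array cannot turn groups that do not overlap, so this is no added support. Changed genes numbered 1686, and 409 without an intensity filter or 2645 with an intensity trend. Called list genes numbered 9, and 2 without a filter, and called neighbours 7, and 0 without a filter (with limma, more and dimmer genes tested). With an array left out these counts ran from 0 to 755, 0 to 4 and 0 to 2, and a lone array was then assumed to vary like the other group. Of changed genes 59.9% fell on deposited values, 48.4% after quantile and 49.0% after cyclic loess normalization, where list genes rose and fell as 3 and 6, 3 and 5, and 3 and 5. The replicate block gave 1604 changed genes. Same-numbered arrays deviated together with a correlation of 0.14 across genes, and the labels do not say that the numbers pair cultures, so the block is given as a setting only. It ended the call of NCR1 and changed no other call among the named genes. Among the named genes, signs turned for some not called: ARHGDIA after quantile (0.0031) and cyclic loess normalization (0.0017), and, with an array left out, GFI1B (from -0.15 to 0.040), RDH13 (from -0.17 to 0.043), TYROBP (from -0.038 to 0.50) and KLF1 (from -0.32 to 0.082). The cause was not tested. Signal near background limits what can be said of ARHGDIB, MIR4420, CD37, CD52, MAG and the dim markers.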
